A study of Mus musculus with 24 samples.

Results

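The HoxC cluster is the group of 9 homeobox genes Hoxc4, Hoxc5, Hoxc6, Hoxc8, Hoxc9, Hoxc10, Hoxc11, Hoxc12 and Hoxc13, which lie side by side on mouse chromosome 15. They were taken by name, as 9 of the 35591 genes in the deposited count table and 9 of the 39 Hox genes in the deposited log2 RPKM table (read density scaled to transcript length and library size, on a log2 scale). Expression was measured by sequencing of poly(A) RNA in 24 libraries from 6 male primary mouse embryonic stem cell (mESC) lines, which were differentiated towards neuromesodermal progenitors (NMPs), the cells that give rise to the spinal cord and the trunk mesoderm. Of the lines, 3 were wild type, Smchd1[fl/+] (wt), and 3 were heterozygous, Smchd1[del/+] (het). Each line was sampled on day 0 in medium with LIF, and on day 2, day 2.5 and day 3 of differentiation, which gave 8 groups of 3 libraries. All lines came from the reciprocal cross of a Castaneus mother with a C57BL/6 father that carried MMTV-Cre with a floxed and a deleted Smchd1 allele, so the het lines had received the deleted copy from the father and the wt controls carried a floxed one. Per the study's methods, cells were grown in N2B27 medium with bFGF from day 0 and Wnt signalling was activated with CHIR99021 from day 2. A replicate is 1 line derived from 1 blastocyst, so p-values measure the spread between lines, and the 4 time points of a line were not independent of each other.

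Hox genes encode transcription factors with a DNA-binding homeodomain and give cells their position along the body axis. In a cluster they are laid out in the order in which they act, with low-numbered (anterior) genes switched on earlier and further forward than high-numbered (posterior) genes, and before that time they are kept silent by Polycomb complexes. Genes of the HoxC cluster are known for their part in the identity of the neck, trunk and hindlimb levels of the skeleton and of the spinal cord. Smchd1, the gene deleted on 1 allele in het lines, encodes a regulator that keeps some genes silent through their chromatin, and the comparison of het with wt lines asks whether a single working copy in the embryo's own cells alters the activation of these genes.

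All 9 genes are annotated as protein coding on the plus strand of chromosome 15 (GRCm38), from Hoxc13 at the low end to Hoxc4 at the high end, and together they span chr15:102921103-103036852 or 115.8 kb. The most conserved stretch of the homeobox, the exon sequence that encodes the homeodomain, shows how close the members are to each other. It is printed here for the 6 members from Hoxc8 to Hoxc13 because closely related genes could share reads. Each line gives the 39 bases of homeobox codons 46 to 58 on the plus strand, in order from anterior to posterior, taken from GENCODE transcripts of the GRCm38 build. Capitals mark the bases that differ from Hoxc8.
Hoxc8: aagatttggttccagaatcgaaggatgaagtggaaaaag
Hoxc9: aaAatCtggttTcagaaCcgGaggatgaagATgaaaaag
Hoxc10: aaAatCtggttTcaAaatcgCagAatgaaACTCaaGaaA
Hoxc11: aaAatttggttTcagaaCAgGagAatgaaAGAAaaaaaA
Hoxc12: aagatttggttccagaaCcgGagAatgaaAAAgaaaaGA
Hoxc13: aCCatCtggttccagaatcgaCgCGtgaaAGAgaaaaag

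The Hoxc8 window lies at chr15:102992706-102992744 and the Hoxc13 window at chr15:102927345-102927383. Within these 39 bases Hoxc9 differed from Hoxc8 at 7 positions, Hoxc10 at 12, Hoxc11 at 11, Hoxc12 at 8 and Hoxc13 at 9. Over the whole homeobox, 64.4% of bases were identical between Hoxc8 and Hoxc9, and 53.3% between Hoxc8 and Hoxc13. The closest of the 15 pairs was Hoxc9 and Hoxc10, with 71.7% identical bases and a longest identical run of 17 bases. In the annotation, every 75-base stretch of the main transcript was found in no transcript of another gene for 7 of the members, while for Hoxc9 it was 99.7% of stretches and for Hoxc10 94.9%. Hoxc10 shares 166 exon bases with a second transcript of Hoxc5, which starts inside Hoxc10, so reads in that stretch could be counted for either gene and low counts of Hoxc10 are uncertain. Whether strand was used in counting is not stated in the sources used here.

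Library totals ranged from 7102655 to 20818018 counts, with the smallest in wt day 2.5 line 2. A floor of 3 counts in a library was 0.138 to 0.414 CPM (counts of a gene relative to the library total, with the totals scaled by TMM, the trimmed mean of M values), and floors and intervals of this kind cover counting error only. Smchd1, the targeted gene, was at 142 ± 9.70 CPM in wt and 94.4 ± 6.01 CPM in het on day 0 and at 193 ± 23.1 and 106 ± 1.83 CPM on day 3 (SD, n = 3), and on each of the 4 days the lowest wt library was above the highest het library. The difference was called at day 2 and day 3 (edgeR adjusted p = 0.00824 and 0.0307) and not at day 0 and day 2.5 (adjusted p = 0.1 and 0.907). The labelled course of differentiation was checked on 10 NMP and caudal epiblast markers. From day 2 to day 2.5, 9 of them rose in each genotype and Sox2 fell, where 14.6% of all genes tested were called higher in wt and 21.8% in het. Some passed the filter on low counts only through day 2.5 (Sp5 had 0 counts in all libraries of day 2), so the levels serve as the check and not the share. T, a marker of the primitive streak and its derivatives, went from 0.454 ± 0.550 to 304 ± 135 CPM in wt (SD, n = 3). In bulk RNA, fewer cells that express a gene and less RNA per cell cannot be told apart.

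The HoxC genes had few counts in stem cells and at day 2, and their summed level was higher on the days after Wnt activation. At day 0, 45 of the 54 member values (9 genes in 6 libraries) were 0 counts. By day 2 this number had gone down to 31. By day 2.5 only 10 of the 54 were 0, and at day 3 it was 12, all of them Hoxc11 and Hoxc12. Counts summed over the 9 genes were 13, 7 and 18 in wt lines 1, 2 and 3, and 8, 26 and 11 in the het lines, at day 0. For day 2 the wt sums were 19, 28 and 31, against 26, 37 and 23 for het. They reached 209, 91 and 182 in wt and 215, 215 and 247 in het at day 2.5, and 694, 648 and 421 in wt and 617, 376 and 481 in het at day 3. On the CPM scale the sum was 0.842 ± 0.444 in wt and 0.938 ± 0.633 in het at day 0, 1.32 ± 0.335 and 1.76 ± 0.391 at day 2, 11.6 ± 0.928 and 11.4 ± 0.970 at day 2.5, and 32.2 ± 6.67 and 24.3 ± 6.95 at day 3 (SD, n = 3). Every library of day 2.5 was above every library of day 2, and every library of day 3 was above every one of day 2.5. In this sum wt and het libraries were interleaved at every time point.

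**Figure D1:**
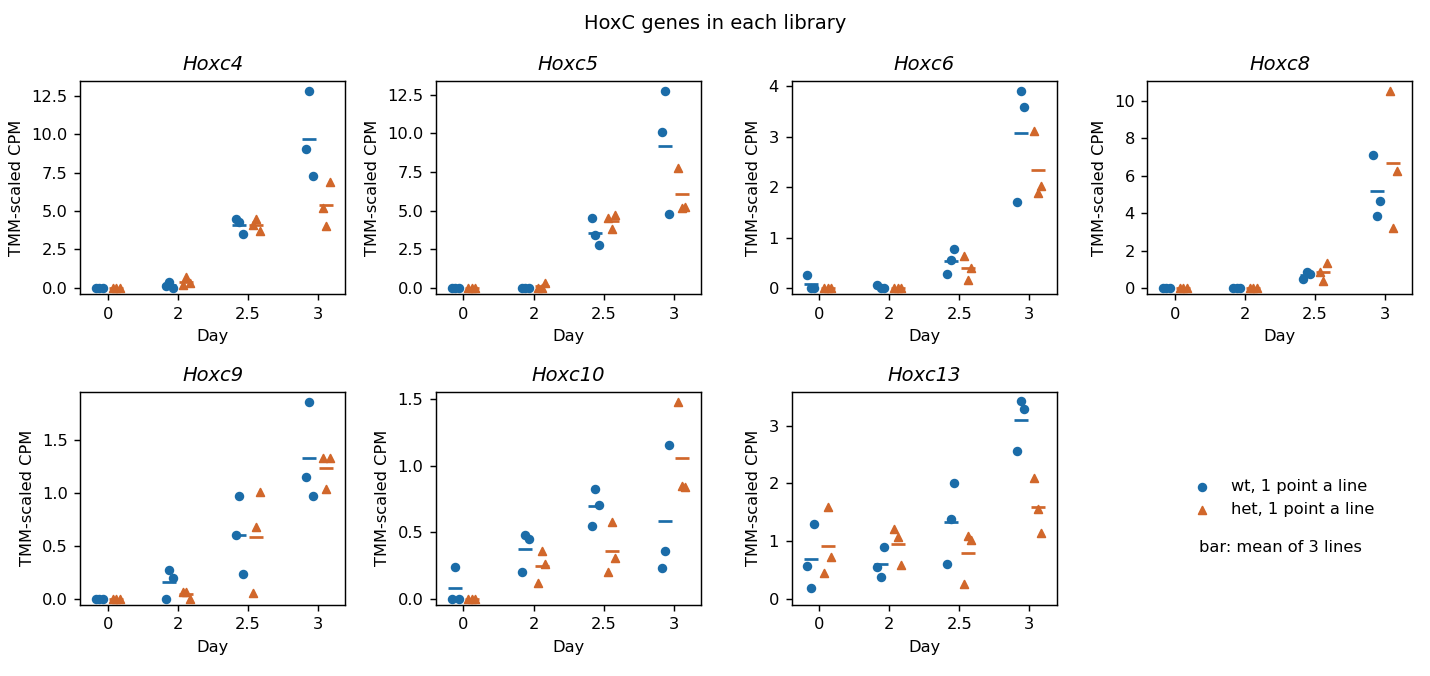
TMM-scaled CPM of the 7 HoxC genes with more than a stray count, by day of differentiation on the x axis, with a separate y scale for each gene. Each point is a library (circles wt, triangles het), and each bar is the mean of 3 lines. Hoxc4 and Hoxc5 are at 2.77 to 4.75 CPM at day 2.5, Hoxc8 and Hoxc6 stay at or below 1.31 CPM until day 3, and Hoxc13 has counts at every time point.

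Hoxc4 and Hoxc5 are the most anterior genes of the cluster and the first to appear in numbers. Hoxc4, a gene of the paralogue group that marks the neck region, had 0 counts in all 6 libraries of day 0. At day 2 it had 3, 7 and 0 counts in wt lines 1, 2 and 3 and 3, 12 and 5 in het. At day 2.5 it had 81, 31 and 59 counts in wt and 83, 86 and 73 in het, or 4.46, 4.28 and 3.47 CPM and 4.08, 4.49 and 3.69 CPM. Each day 2.5 library was above each day 2 library, and the genotypes overlapped at day 2.5. Between these days Hoxc4 rose by a log2 fold change of 4.51 ± 0.75 in wt (SE, edgeR adjusted p = 0.000794) and 3.28 ± 0.53 in het (adjusted p = 0.000205).

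Hoxc5, its neighbour in the same region, had 0 counts in every library of day 0 and in 5 of the 6 of day 2, the exception being het line 3 with 5 counts. At day 2.5 it had 82, 25 and 47 counts in wt lines 1, 2 and 3 and 92, 73 and 94 in het, or 4.51, 3.45 and 2.77 CPM and 4.52, 3.81 and 4.75 CPM. Hoxc5 rose in both genotypes (edgeR adjusted p = 0.000131 in wt and 9.63e-05 in het), and against the floor of 3 counts over the 3 wt libraries of day 2 its pooled level at day 2.5 was at least 71.6-fold higher. In het, where day 2 held 5 counts, the pooled level was 42.6-fold higher. Together Hoxc4 and Hoxc5 made up 67.4% of all HoxC counts in wt and 74.0% in het at day 2.5.

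From day 2 to day 2.5, 2 of 4 members tested in wt and 2 of 3 tested in het were called higher, in both cases Hoxc4 and Hoxc5, where 14.6% of all genes tested were called higher in wt and 21.8% in het. The other members tested were Hoxc10 and Hoxc13 in wt and Hoxc13 in het. Hoxc6, Hoxc8 and Hoxc9 had too few counts to pass the filter. Hoxc4 and Hoxc5 passed it only through day 2.5, the day on which they were high, so nothing is read from the share of tested members. From day 0 to day 2, 0 of 0 members tested were called in wt and 0 of 1 in het (edgeR, with 0 at an unadjusted p under 0.05 in both), beside 22.4% and 28.0% of all genes called higher. With no filter or with the DESeq2 test, which admit genes with fewer counts, 0 members were called in wt and 1 in het for that step, Hoxc4 (adjusted p = 0.0413 and 0.0282), whose libraries all had 0 counts at day 0.

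Hoxc8, a gene of the thoracic level, was at 0 counts in all 12 libraries of day 0 and day 2. It had 9, 6 and 13 counts in wt lines 1, 2 and 3 and 17, 7 and 26 in het at day 2.5, and 155, 64 and 76 in wt and 206, 68 and 127 in het at day 3. In CPM the day 3 libraries were at 7.12, 3.85 and 4.63 in wt and 10.5, 3.20 and 6.25 in het, where line 1 was the highest, as it was in wt. Thus every library of day 2.5 had counts, and every library of day 3 was above every library of day 2.5. Hoxc8 rose from day 2.5 to day 3 by a log2 fold change of 2.94 ± 0.42 in wt (SE, edgeR adjusted p = 0.00193) and 2.96 ± 0.49 in het (adjusted p = 0.00117). Its pooled level at day 2.5 was at least 13.0-fold higher than the day 2 floor in wt and at least 13.7-fold in het. Where the filter on low counts was dropped, that earlier step was called too, at an adjusted p of 0.0135 in wt and 0.00104 in het.

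Hoxc6, which acts at the boundary between neck and thorax, followed a similar course at a lower level. One library of day 0 (wt line 1) had 4 counts, 1 of day 2 had 1 count, and the other 10 libraries of those days had 0. At day 2.5 there were 5, 4 and 13 counts in wt and 13, 3 and 8 in het, and at day 3 37, 65 and 59 in wt and 61, 40 and 41 in het. All 6 libraries of day 3 lay above all 6 of day 2.5, at 1.70 to 3.91 CPM against 0.157 to 0.765 CPM. Hoxc6 rose between these days by a log2 fold change of 2.53 ± 0.56 in wt (SE, edgeR adjusted p = 0.0125) and 2.50 ± 0.50 in het (adjusted p = 0.00354).

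In the same step Hoxc4 and Hoxc5 went on rising in wt. Hoxc4 reached 9.05, 12.8 and 7.25 CPM in wt lines 1, 2 and 3 at day 3 and 5.22, 4.01 and 6.89 CPM in het. It rose by a log2 fold change of 1.27 ± 0.28 in wt (SE, edgeR adjusted p = 0.0127), and in het its change was 0.37 ± 0.25 (adjusted p = 0.292). Hoxc5 reached 10.1, 12.7 and 4.75 CPM in wt and 7.78, 5.18 and 5.22 CPM in het. Its log2 fold change was 1.37 ± 0.37 in wt (adjusted p = 0.0277) and 0.45 ± 0.23 in het (adjusted p = 0.17). A change called in wt and not in het is not by itself a difference between them, and the test of that difference is given with the interactions.

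In all, 4 of 7 members tested were called higher from day 2.5 to day 3 in wt, beside 8.99% of all genes tested, and 2 of 7 in het, beside 13.8%. Hoxc6 and Hoxc8 had under 10 counts in 1 or more libraries of each day 2.5 group and passed the filter with the help of day 3, so nothing is read from these shares either. No member was called lower in any time step. The wt count rested partly on single libraries. Without wt day 3 line 2, which had the highest Hoxc4, Hoxc5 and Hoxc6, it was 1 of 4, as only Hoxc8 kept an adjusted p under 0.05 (0.00819), with Hoxc4 at 0.0577, Hoxc6 at 0.0596 and Hoxc5 at 0.117. Hoxc5 was also not called without wt day 2.5 line 2 (adjusted p = 0.0867), wt day 2.5 line 3 (0.0731) or wt day 3 line 1 (0.0654), and Hoxc6 not without wt day 3 line 3 (0.0579). With the line as a block, which pairs the samples of the same line, 5 members were called in wt, because Hoxc13 then had an adjusted p of 0.0407 in place of 0.0959. The count in het was 2 in every alternative run.

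**Figure D2:**
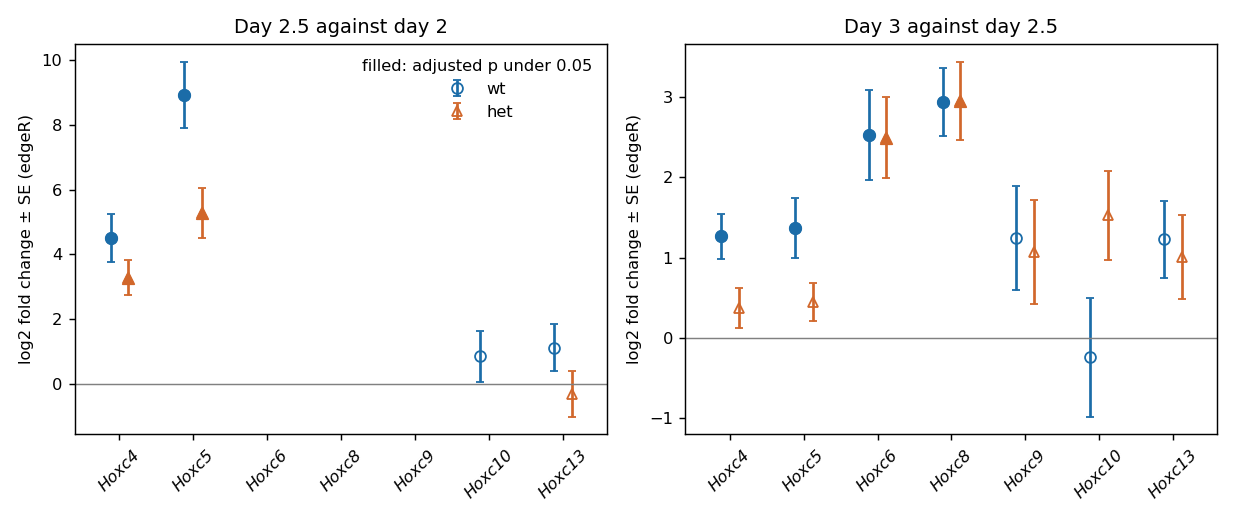
Log2 fold change with its SE (edgeR, 3 libraries a day) of each HoxC gene tested from day 2 to day 2.5 on the left and from day 2.5 to day 3 on the right, wt as circles and het as triangles, filled where the adjusted p was under 0.05. On the left the called genes are Hoxc4 and Hoxc5, and Hoxc6, Hoxc8 and Hoxc9 had too few counts to be tested there. On the right Hoxc8 and Hoxc6 are at 2.50 to 2.96 in both genotypes, above the other genes.

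The share of its day 3 level that a gene had already reached at day 2.5 was compared between genes. In the 3 wt lines Hoxc4 was at 49.2%, 33.4% and 47.9% of its day 3 CPM and Hoxc5 at 44.8%, 27.1% and 58.2%. Hoxc6 was at 16.2%, 14.1% and 21.3% and Hoxc8 at 6.95%, 21.5% and 16.5% in the same lines. In het lines Hoxc4 was at 78.1%, 112% and 53.5% and Hoxc5 at 58.1%, 73.5% and 90.9%, while Hoxc6 was at 20.5%, 8.30% and 20.0% and Hoxc8 at 7.92%, 11.4% and 21.0%. In each of the 6 lines Hoxc4 and Hoxc5 were both above Hoxc6 and Hoxc8. In wt lines the share did not fall further towards the posterior end. There Hoxc9 was at 52.7%, 51.8% and 24.2%, Hoxc10 at 239.5%, 229.5% and 61.0%, and Hoxc13 at 23.5%, 40.3% and 60.8%. These wt values came from 4 to 34 counts a library at day 2.5. In het lines Hoxc9 was at 3.69%, 65.4% and 75.9%, Hoxc10 at 13.2%, 67.65% and 36.2%, and Hoxc13 at 11.7%, 70.45% and 89.1%. The het values came from 1 to 21 counts. In het line 1 Hoxc9 was below Hoxc8, from 1 count at day 2.5. As a description with no test, the group means gave 12.6% to 119% over the 7 HoxC genes with a mean of 10 or more counts over the 3 libraries of day 3, the highest being Hoxc10 in wt from 5, 6 and 19 counts, with a median of 41.9% in wt and 47.0% in het. The medians over HoxA, HoxB and HoxD genes measured in the same way were 53.3%, 59.7% and 47.9% in wt and 73.8%, 79.0% and 58.5% in het.

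**Figure D3:**
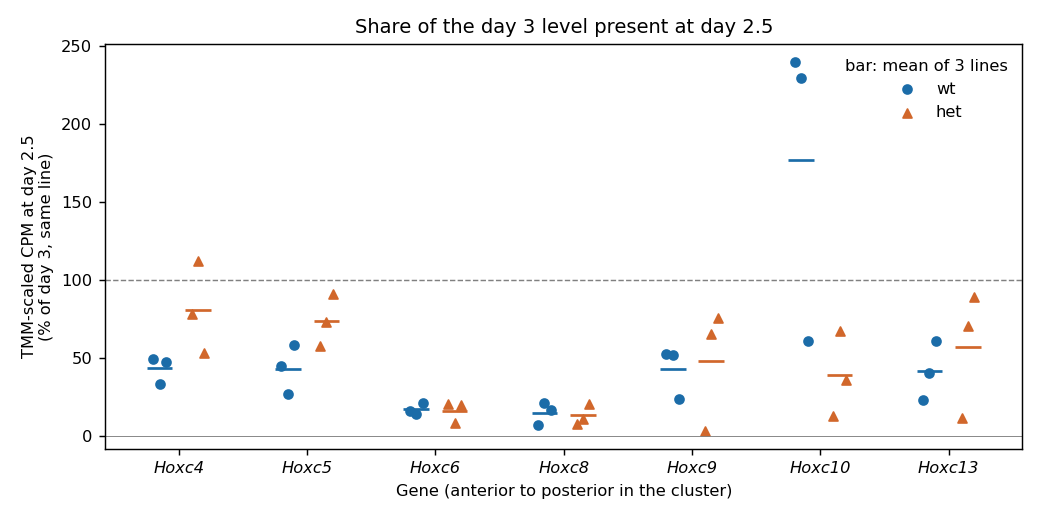
TMM-scaled CPM at day 2.5 as a percent of the CPM of the same line at day 3 for 7 HoxC genes, ordered from anterior to posterior (circles wt, triangles het, bars the mean of 3 lines, dashed line 100%). Hoxc6 and Hoxc8 are at 6.95% to 21.5% in all lines, while Hoxc4 and Hoxc5 are at 27.1% to 112%. Hoxc9, Hoxc10 and Hoxc13 are spread widely.

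Among the posterior genes, Hoxc9, a gene of the lower thoracic level, was first seen with a few counts at day 2, when wt lines had 0, 5 and 4 and het lines 1, 1 and 0. It had 11, 7 and 4 counts in wt lines 1, 2 and 3 and 1, 13 and 20 in het at day 2.5, and 25, 31 and 16 in wt and 26, 22 and 27 in het at day 3. In CPM the lowest library of day 3 (0.975) lay below the highest of day 2.5 (1.01). The change from day 2.5 to day 3 was not called, with a log2 fold change of 1.24 ± 0.65 in wt (SE, edgeR adjusted p = 0.205) and 1.07 ± 0.65 in het (adjusted p = 0.238).

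Hoxc10, a gene of the lumbar level, had 4 counts in 1 library of day 0 and 2 to 9 counts in each library of day 2. It stayed at 6 to 12 counts in wt and 4 to 11 in het at day 2.5, and had 5, 6 and 19 counts in wt and 29, 18 and 17 in het at day 3. From day 2.5 to day 3 its log2 fold change was -0.24 ± 0.74 in wt (SE, edgeR adjusted p = 0.848) and 1.53 ± 0.55 in het (adjusted p = 0.0569). In het all day 3 libraries (0.837 to 1.48 CPM) lay above all day 2.5 libraries (0.197 to 0.574 CPM), while in wt these days overlapped. The genotypes overlapped on both days, and part of the counts could come from the Hoxc5 transcript that shares its exon.

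Hoxc11 and Hoxc12, which lie towards the posterior end of the cluster, were under the floor of 3 counts in every library. Hoxc11 had 1 count in each of 2 het libraries (day 0 line 2 and day 2.5 line 2), and Hoxc12 had 2 counts in wt day 2.5 line 2. All other libraries had 0 counts for both, which at the floor of 3 counts allows up to 0.138 to 0.216 CPM in a library other than wt day 2.5 line 2, where it was 0.414 CPM.

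Hoxc13, the most posterior gene of the cluster and one known for its part in hair and nail formation, was measured at every time point. It had counts in all 24 libraries, with 9, 3 and 18 in wt lines 1, 2 and 3 and 8, 25 and 11 in het at day 0, when it made up 78.9% of all HoxC counts in wt and 97.8% in het. At day 2 it had 11, 7 and 18 counts in wt and 20, 18 and 9 in het, and at day 2.5 11, 10 and 34 in wt and 5, 21 and 20 in het. By day 3 it had 56, 57 and 54 counts in wt and 41, 33 and 23 in het. From day 0 to day 2.5 the groups overlapped in CPM, between 0.177 and 2.00. In wt all day 3 libraries (2.57 to 3.43 CPM) lay above all earlier ones, with a log2 fold change from day 2.5 of 1.23 ± 0.48 (SE, edgeR adjusted p = 0.0959). In het the change was 1.00 ± 0.52 (adjusted p = 0.171).

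On the log2 RPKM scale, which takes account of transcript length, the order of levels in wt at day 3 was Hoxc4 (1.85 ± 0.42), Hoxc5 (1.43 ± 0.76), Hoxc8 (0.80 ± 0.48), Hoxc13 (0.30 ± 0.20), Hoxc6 (0.24 ± 0.64), Hoxc9 (-0.95 ± 0.49) and Hoxc10 (-2.08 ± 1.18) (SD, n = 3). Each neighbour in this order overlapped with the next over its libraries. In het the order was Hoxc8 (1.07 ± 0.87), Hoxc4 (1.03 ± 0.40), Hoxc5 (0.94 ± 0.34), Hoxc6 (-0.08 ± 0.40), Hoxc13 (-0.67 ± 0.45), Hoxc10 (-0.91 ± 0.48) and Hoxc9 (-0.99 ± 0.22). There only Hoxc5 and Hoxc6 did not overlap. At day 2.5 the break was in the same place of the order in both genotypes, with Hoxc4 at 0.64 ± 0.20 and Hoxc5 at 0.17 ± 0.36 in wt above Hoxc13 at -1.07 ± 0.88, and Hoxc4 at 0.64 ± 0.16 and Hoxc5 at 0.47 ± 0.15 in het above Hoxc13 at -1.95 ± 1.23. The gap between Hoxc5 and Hoxc13 held no overlapping library. All other neighbours overlapped.

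The genotypes were then compared on each day, which asks whether the het lines activate these genes to another level than the wt lines. At day 0 and day 2, 0 of 1 member tested was called, and at day 2.5 and day 3 it was 0 of 7 (edgeR). On the 4 days in turn, the shares over all genes tested were 0%, 0.551%, 0% and 0.00638%. With edgeR, 1649, 1576, 822 and 1432 genes of 15108, 15414, 15588 and 15686 tested had an unadjusted p under 0.05. DESeq2 called 77, 215, 3 and 109 genes. For day 3 edgeR called 100 genes with the line number as a replicate block and 93 without wt line 1. At an unadjusted p under 0.05 the counts of members were 0, 0, 0 and 2, and DESeq2 called 0 members on each day. In a single fit of all 24 libraries, with 7 members tested, these counts of members were 2, 1, 0 and 0. At day 2.5, where Hoxc4 and Hoxc5 had just appeared, their log2 fold changes of het against wt were 0.02 ± 0.27 and 0.29 ± 0.29 (SE, edgeR adjusted p = 0.997 and 0.926). The 95% interval was -0.57 to 0.61 for Hoxc4 and -0.34 to 0.92 for Hoxc5.

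At day 3 the members with an unadjusted p under 0.05 were Hoxc4 and Hoxc13, both lower in het. This count of 2 was 0 in a single fit of all 24 libraries, 3 with no filter, 4 without wt line 3, 3 without het line 1 and 1 without het line 3. Hoxc4 was at 9.05, 12.8 and 7.25 CPM in wt and 5.22, 4.01 and 6.89 CPM in het, and its log2 fold change was -0.86 ± 0.27 (SE, edgeR adjusted p = 0.404, and 0.0659 to 0.802 over the alternatives). The wt lines had 2.57, 3.43 and 3.29 CPM of Hoxc13 and the het lines 2.10, 1.56 and 1.13 CPM. Its log2 fold change was -0.96 ± 0.35 (adjusted p = 0.455, and 0.208 to 0.889 over the alternatives). In both genes all het libraries lay below all wt libraries, but neither difference passed the correction over all genes. Hoxc5 had a log2 fold change of -0.62 ± 0.33 and Hoxc8 of 0.34 ± 0.38 (SE, edgeR), with libraries of both genotypes interleaved (adjusted p = 0.615 and 0.835).

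Counted without a test, 0 members of those past the filter had genotypes that did not overlap at day 0, day 2 and day 2.5, and 2 of 7 at day 3, Hoxc4 and Hoxc13. Over all genes past the filter the genotypes did not overlap for 16.7%, 16.0%, 11.4% and 13.9% on these days. An exact permutation test, two-sided, of the deposited log2 RPKM values gave p = 0.1 for Hoxc4 (1.85 ± 0.42 in wt, 1.03 ± 0.40 in het) and for Hoxc13 (0.30 ± 0.20 in wt, -0.67 ± 0.45 in het), the smallest p that 3 lines against 3 allow. With adjustment over the 14 tests of members with enough counts, the exact permutation p was 0.7 for both. In the other 12 tests the unadjusted exact permutation p was between 0.2 and 1.

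**Figure D4:**
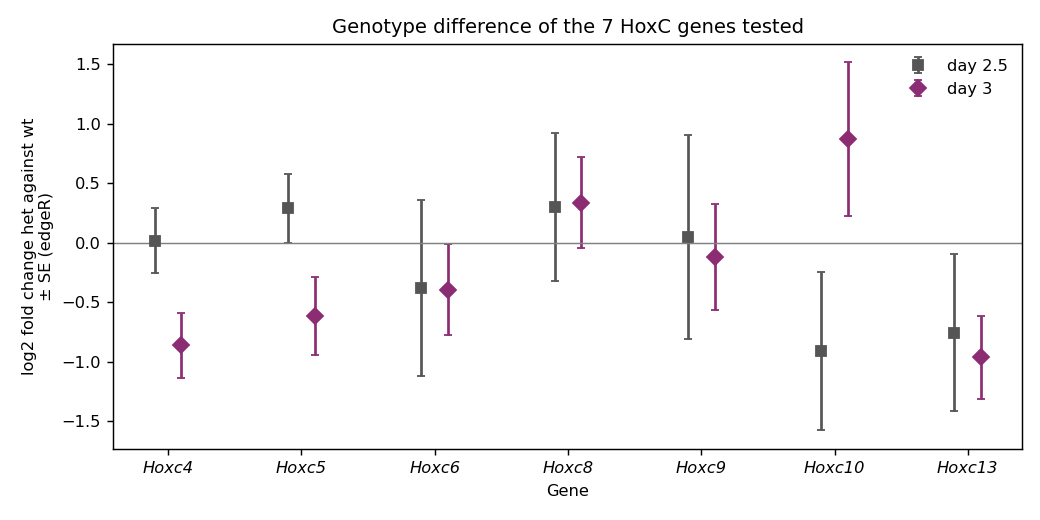
Log2 fold change of het against wt with its SE (edgeR, 3 lines a genotype) of the 7 HoxC genes tested at day 2.5 (squares) and at day 3 (diamonds). Hoxc4 is at 0.02 at day 2.5 and at -0.86 at day 3, and Hoxc13 is below 0 on both days. None had an adjusted p under 0.05.

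Whether the time steps themselves differed between genotypes was tested as an interaction. None of 7 members was called for the step from day 2 to day 2.5 and none of 7 for the step from day 2.5 to day 3 (edgeR), beside 0% of all genes in both (850 and 635 genes at an unadjusted p under 0.05, and 0 called by DESeq2). One member had an unadjusted p under 0.05 in each, and DESeq2 called 0. Over the alternatives this count ranged from 0 to 1 in the first step (0 with the line as a block) and from 0 to 3 in the second (0 in a single fit of all 24 libraries, 2 with the block, 3 without wt day 3 line 3, and 0 without wt day 3 line 2, wt day 2.5 line 3, het day 2.5 line 2 or het day 3 line 2). With all libraries of these days, these were Hoxc5 in the first step, where the wt libraries of day 2 were all at 0 counts, and Hoxc4 in the second step. The change of Hoxc4 from day 2.5 to day 3 in het less that in wt was a log2 difference of -0.88 ± 0.37 (SE, 95% interval -1.67 to -0.08), with an adjusted p of 0.999 (0.693 to 1 over the alternatives). For Hoxc8 and Hoxc6 the difference between the genotypes in that step was 0.02 ± 0.80 and -0.02 ± 1.06 (SE), with 95% intervals of -1.67 to 1.71 and -2.27 to 2.24.

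Markers of other cell types were compared between the genotypes in the same way. At day 0 the summed CPM of the 8 endoderm markers was 644 to 1230 in wt and 353 to 562 in het. Of 7 tested, 0 were called and 6 had an unadjusted p under 0.05 (edgeR), beside 1649 of 15108 genes tested. At day 2, 5 of 7 endoderm markers tested were called lower in het, beside 77 of 15414 genes tested. With single libraries left out, the count over all genes was 190, 103 and 8 without wt line 1, 2 or 3. It was 0, 3 and 0 without het line 1, 2 or 3, so the 5 calls rested on single libraries. The sum at day 2 was 2120 to 4870 in wt and 1370 to 1960 in het. At day 2.5 it was 1220 to 4270 in wt and 1760 to 2430 in het, with 0 of 7 called and 0 at an unadjusted p under 0.05. At day 3 the same sum was 1190 to 2640 in wt and 988 to 1650 in het. Of 7 tested, 0 were called and 5 had an unadjusted p under 0.05 (edgeR), with a median log2 fold change of -0.72. The sum of 4 epiblast markers was 144 to 188 in wt and 188 to 266 in het. Of these 4, 0 were called and 3 had an unadjusted p under 0.05 (edgeR), with a median of 0.98. Over all genes tested at day 3, 1432 of 15686 had an unadjusted p under 0.05 (edgeR). None of the 10 NMP markers was called between genotypes at day 2.5 or day 3, with 0 at an unadjusted p under 0.05 on either day. Markers of lateral plate and limb, which also use HoxC genes, summed to 3.78 to 6.08 CPM in wt and 4.04 to 4.62 in het at day 3, with Hand2 and Tbx5 at 0 in wt. Over both genotypes at day 3, those of neural crest summed to at most 1.28 CPM, those of paraxial mesoderm to 8.39 to 24.5 CPM, those of neural cells to 9.08 to 16.8 CPM, and those of pluripotency to 271 to 405 CPM in wt and 383 to 536 in het. The part of these cell types in the levels of Hoxc4 and Hoxc13 was not tested.

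Genes upstream of the Hox clusters and partners of Hox proteins were taken as a list of 16 genes. From day 2 to day 2.5, 7 of 16 rose and 3 fell in wt, and 7 rose and 4 fell in het, with median log2 fold changes of 0.27 and 0.25 beside 0.00 and 0.01 over all genes tested. Of all genes tested, 14.5% were called lower in wt and 22.9% in het, beside the 14.6% and 21.8% called higher. Cdx4 had 0 to 13 counts and Fgf8 0 to 16 in the wt libraries of day 2 (0 to 27 and 0 to 10 in het). Both passed the filter through day 2.5, so nothing is read from these shares. The 7 that rose in wt included Cdx1, Cdx2 and Cdx4, caudal homeobox factors that bind in the Hox clusters, with log2 fold changes of 8.26 ± 0.29, 6.56 ± 0.23 and 7.52 ± 0.59 (SE). Cdx2 went from 1.51 ± 0.189 to 143 ± 35.1 CPM in wt and from 2.41 ± 0.756 to 145 ± 18.7 CPM in het (SD, n = 3). From day 2.5 to day 3, 6 of 16 rose and 1 fell in wt, and 9 rose and 1 fell in het, where 10.1% and 16.0% of all genes were called lower, beside the 8.99% and 13.8% called higher. Gdf11, a secreted factor known to promote the switch to posterior Hox genes, rose by a log2 fold change of 1.14 ± 0.22 in wt and 0.94 ± 0.21 in het in that step, and Cdx1 fell by 1.24 and 1.32. Between genotypes 0 of the 16 were called on any day, with 14, 13, 16 and 16 tested and 1, 2, 0 and 0 at an unadjusted p under 0.05 (edgeR).

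Polycomb genes, which encode the complexes that hold Hox clusters silent, were taken as a list of 13. From day 2 to day 2.5, 1 rose and 4 fell in wt, and 3 rose and 5 fell in het. Over all genes tested, 14.6% were called higher and 14.5% lower in wt, and 21.8% and 22.9% in het. The median log2 fold changes were -0.17 and -0.0039 over the list, beside 0.0011 and 0.0099 over all genes tested. Nothing about the list as a whole is read from these counts. The member that rose in wt was Cbx2, a chromobox subunit of Polycomb repressive complex 1, with a log2 fold change of 0.75 ± 0.22 (SE). In het those that rose were Eed, a core subunit of Polycomb repressive complex 2 (0.35 ± 0.086), and Pcgf2 and Ring1, subunits of complex 1 (0.49 ± 0.14 and 0.77 ± 0.28). Jarid2, a cofactor of complex 2, fell by 1.14 on the log2 scale in wt and by 1.33 in het, and Ezh1, one of its catalytic subunits, fell by 1.20 and 1.53. Suz12, a core subunit of the same complex, fell by 0.48 and 0.63. Rnf2 of complex 1 fell by 0.39 and 0.35, and Ezh2 fell by 0.43 in het. From day 2.5 to day 3, 1 rose and 1 fell in wt and 2 rose and 2 fell in het, near the shares over all genes (8.99% higher and 10.1% lower in wt, 13.8% and 16.0% in het). None of the 13 was called between genotypes on any of the 4 days, with 0, 2, 0 and 1 at an unadjusted p under 0.05 (edgeR).

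Set beside their paralogues in the HoxA, HoxB and HoxD clusters, which share the number and much of the homeodomain, the HoxC genes took different places at day 3. In wt Hoxc4 was the highest of 4 on the log2 RPKM scale at 1.85 ± 0.42, next to Hoxb4 at 1.30 ± 0.54, whose libraries overlapped with it, and Hoxd4 at 1.01 ± 0.59 (SD, n = 3), whose highest library (1.4515) lay just under the lowest of Hoxc4 (1.4522). Hoxc5 at 1.43 ± 0.76 was near Hoxa5 at 1.78 ± 0.29 in wt. In het Hoxc5 at 0.94 ± 0.34 was below Hoxa5 at 2.03 ± 0.07 with no overlap. In wt Hoxc9 at -0.95 ± 0.49 was far below Hoxb9 at 3.97 ± 0.19, with a difference of -4.92 and no overlap. Hoxb9 was the highest of the 4 group 9 genes. Hoxc8 at 0.80 ± 0.48 was below Hoxb8 at 2.44 ± 0.36 with no overlap in wt. In het Hoxc8 at 1.07 ± 0.87 overlapped with Hoxb8 at 2.00 ± 0.36. Hoxc13 at 0.30 ± 0.20 was above Hoxd13 at -0.59 ± 0.24 and Hoxa13 at -2.30 ± 0.41 with no overlap in wt. In het Hoxc13 at -0.67 ± 0.45 overlapped with Hoxd13 at -0.16 ± 0.55. At day 2.5 the difference of Hoxc9 from Hoxb9 was -4.07 in wt and -4.93 in het. These are levels side by side, and differences between genes were not tested.

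**Figure D5:**
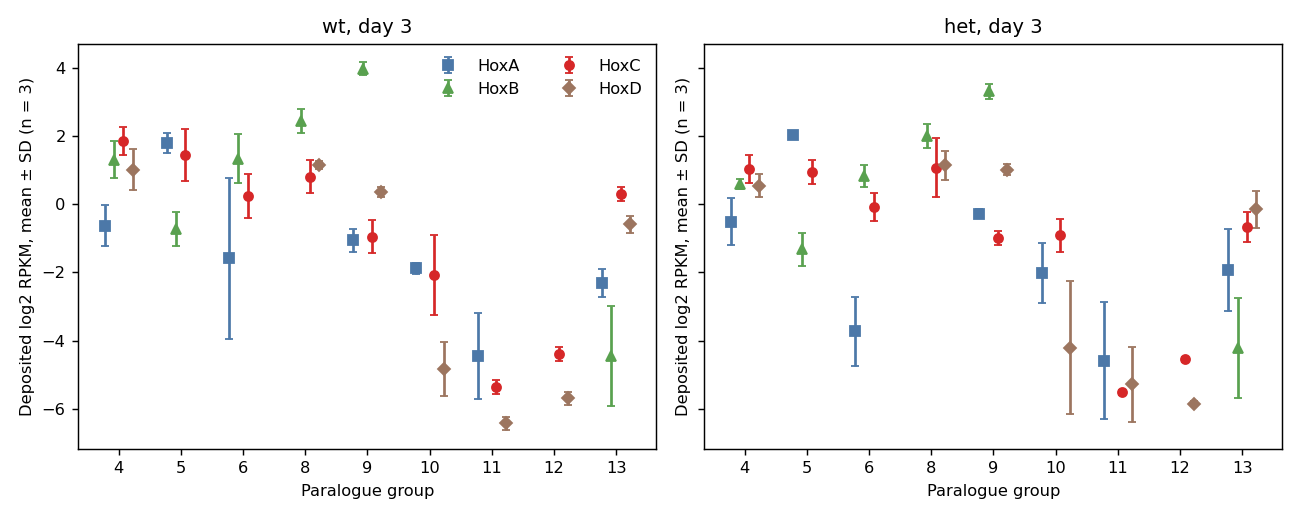
Deposited log2 RPKM at day 3 of the HoxC genes (circles) and of the genes with the same number in HoxA (squares), HoxB (triangles) and HoxD (diamonds), as mean and SD of 3 lines, with wt on the left and het on the right. A gene with 0 counts is listed by the authors at a value of about 0.9 counts, so the lowest points are at or near 0 counts. Hoxc4 and Hoxc13 are the highest of their group in wt, and Hoxc9 lies below Hoxb9 with a difference of -4.92.

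Over the 30 other Hox genes, 15 of 20 tested rose from day 2 to day 2.5 in wt and 18 of 22 in het, where 14.6% and 21.8% of all genes were called higher. Genes such as Hoxb6, Hoxb8 and Hoxb9 had 0 to 9 counts in the wt libraries of day 2 and passed the filter through day 2.5, so nothing is read from these shares. For the step from day 2.5 to day 3 it was 9 of 23 in wt with 1 lower, and 7 of 24 in het with 2 lower, where 8.99% and 13.8% of all genes were called higher and 10.1% and 16.0% lower. The filter acts on these shares too, and nothing is read from them. At day 3 the median of het against wt was -0.39 over the 7 HoxC genes and -0.61 over 9 HoxB genes. It was 0.12 over 9 HoxA genes and 0.10 over 6 HoxD genes, and 0 genes of any cluster were called. With single libraries left out, the HoxC median ranged from -0.65 (without het line 1) to -0.17 (without wt line 2).

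The genes whose pattern over the 24 libraries was most like the summed HoxC level, by Pearson's r of log2(CPM + 0.5) among 13618 genes outside the locus, were Hoxb8 (r = 0.978), Gm45889 (0.976), Hoxb3 (0.972), Foxb1 (0.968) and Hoxb6 (0.967). The libraries of a line and of a day share their source, so r is a description here. Hoxb8 was at 4.35 CPM in wt and 5.52 in het at day 2.5 and at 14.7 and 10.8 at day 3. Gm45889, a gene of chromosome 7 without an assigned name, went from 15.4 and 26.4 CPM at day 2.5 to 69.9 and 50.1 at day 3.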

How the data were processed

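The deposited count table held raw read counts per gene for 24 libraries. According to the methods and the submitters' processing notes, the authors trimmed reads with Trim Galore 0.4.4, aligned them with HISAT2 2.0.5 to GRCm38.p6 and quantified genes in SeqMonk. The deposited Hox table held log2 RPKM values that the authors scaled by library total and transcript length. A table of differentiation factors and 8 columns of group means were not used, and 0 sample columns were unmatched. The kit was stranded or non-stranded according to the labels. Whether multi-mapping reads were counted is not given in the sources used here.

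Counts of all genes were tested with edgeR 4.0.16 in R 4.3.3 (TMM factors, filterByExpr with a minimum count of 10, quasi-likelihood test, Benjamini-Hochberg adjustment over all genes tested, called at adjusted p under 0.05), per day or step with only the groups compared. "Rose", "fell" and "called" mean this test. The procedure was tested on simulated data. Alternatives were DESeq2 1.42.0 (size factors and Wald test), library totals, no filter, all 24 libraries, the line number as a replicate block, and each library left out. Log2 CPM used a pseudocount of 0.5. SE is the fold change over the square root of the test's F, and intervals use the t quantile at its degrees of freedom.

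Members, lists and rules for named genes (all 9 members, list genes, paralogues, the 5 genes most correlated, rows within 100 kb) were chosen with earlier results of these data known. Days of the same line are paired by the line, since the same cell line was sampled on each day. Residuals of same-line libraries on consecutive days correlated at -0.0684 to 0.313 over 18 pairs. Sequences came from GENCODE transcripts (GRCm38). Some sequences and 1 gene of the lists are not reported here.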

Additional observations from a re-analysis of the deposited data

How the results depend on the processing

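No member was called between genotypes or in an interaction under any alternative. Low counts of Hoxc6, Hoxc8, Hoxc9 and Hoxc10 limit what can be seen before day 3, and 3 lines limit the genotype comparison.

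Counts of members called in the early steps moved with the test, the filter and the libraries fitted together, and the cause was not tested. From day 0 to day 2 it was 2 in wt in a single fit of all 24 libraries (0 in the 2-group fit, with no filter and with the Wald test), and in het 1 with no filter, 1 with the DESeq2 Wald test and 2 in the 24-library fit. From day 2 to day 2.5 it was 3 in wt with no filter and 4 with the Wald test and in the 24-library fit, and in het 4 with no filter, 4 with the Wald test and 5 in the 24-library fit, against 2. With single libraries left out it ranged from 2 to 4 in wt (4 without wt day 2 line 1 or wt day 2.5 line 1) and from 2 to 3 in het, and from day 2.5 to day 3 in wt from 1 to 4.

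With the line as a replicate block, 2 members were called from day 2 to day 2.5 in each genotype, and from day 2.5 to day 3 5 in wt and 2 in het. The block changed no other call of a member. Line numbers shared by wt and het lines mark different lines, and their residuals correlated at -0.113 to 0.148 over 12 pairs. With that number as a block 0 members were called between genotypes.

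Directions of uncalled het against wt differences turned in 13 cases, and the other 179 kept theirs. With single libraries left out, Hoxc13 at day 0 ranged from -0.23 to 1.26 (-0.039 without wt line 2, -0.23 without het line 2). At day 2.5 Hoxc9 was at -0.018 with the Wald test and -0.29 with the replicate block, and ranged from -0.64 to 0.58 with single libraries left out (-0.38 without wt line 3, -0.11 without het line 2, -0.64 without het line 3). On that day Hoxc8 ranged from -0.18 (without het line 3) to 0.64, Hoxc6 from -0.90 to 0.081 (without wt line 3) and Hoxc4 from -0.085 (without wt line 3) to 0.085, with -0.063 without het line 2. At day 3 Hoxc9 ranged from -0.30 to 0.20 (without wt line 2) and Hoxc8 from -0.15 (without het line 1) to 0.67.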

Other observations

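Around the HoxC genes, 7 other rows of the count table start within the locus or within 100 kb of its ends, all with few counts. Hotair, a long non-coding RNA on the opposite strand between Hoxc11 and Hoxc12, had 1 count over the 24 libraries. The other rows lie beyond the Hoxc4 end. Gm28265 had 143 counts in all, with 0 at day 0, 0 to 9 in wt and 1 to 13 in het at day 2.5, and 3 to 20 in wt and 12 to 22 in het at day 3. D930007P13Rik had 73 counts in all, with 0 in each library of day 0 and day 2, 0 to 2 in wt and 2 to 10 in het at day 2.5, and 3 to 14 and 6 to 15 at day 3. Gm28876 had 49 counts, of which 6 to 14 a library were in wt and 1 to 6 in het at day 3. Gm10830, Gm49477 and 5730585A16Rik had 22, 17 and 12 counts over all libraries. Of these rows, Gm28265 and D930007P13Rik were tested between genotypes at day 3 and were not called (edgeR adjusted p = 0.915 and 0.94).

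The make-up of the HoxC transcripts by gene at day 3 was 58.9% Hoxc4 and Hoxc5 and 30.0% Hoxc6, Hoxc8 and Hoxc9 in wt, and 47.2% and 41.9% in het, as shares of the counts pooled over 3 libraries and with no test. Hoxc8 alone was 16.7% of the counts in wt and 27.2% in het, of which het line 1 gave 206 of 401.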
